A study of Papio sp. with 35 samples.

Results

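FAM198B and its relative FAM198A were followed in left ventricle RNA from 35 normal female baboons (Papio sp.), 1 library per animal. They are 2 of the 35366 gene names in the deposited table of counts. FAM198B was chosen by its own values in these libraries, because its level is highest in animals of 12 to under 17 years, and FAM198A was taken as its relative whatever its values. The comparison of the middle animals with the rest is therefore given for FAM198B as a description with no test. All animals ate chow freely, none carried a treatment or a genetic change according to the labels, and age is the only factor that varied. Animals were grouped as young (n = 11, aged 7.5 to 11.9 years), middle (n = 10, aged 12 to 15.7 years) and old (n = 14, aged 17.8 to 22.1 years). No animal was aged between 15.7 and 17.8 years.

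FAM198B and FAM198A, which are named GASK1B and GASK1A in current human nomenclature, encode membrane proteins of the Golgi apparatus. Their kinase-like fold places them among the secretory pathway kinases, a group whose better known members phosphorylate proteins and sugars on their way out of the cell. In human lung adenocarcinoma cells FAM198B has been linked to weaker ERK signalling and to less of a matrix metalloproteinase.

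The deposited annotation holds 2 transcripts of FAM198B, both protein coding and both on the minus strand. X1 runs from base 152417390 to base 152465077 and has 5085 bases after splicing. X2 runs from base 152417390 to base 152465996 and has 5474 bases. The transcripts share their 3′ end, while the 5′ end of X2 lies 919 bases upstream of that of X1. FAM198A has 1 protein-coding transcript of 4863 bases, from base 92825733 to base 92908344 on the minus strand of another reference sequence. The genome build of these positions is not given in the sources used here.

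Libraries held between 10579226 and 23948194 counts on named genes. Middle libraries were deeper, with a median of 14938437 counts in young animals, 19130560 counts in middle animals and 16361200 counts in old animals. Numbers that end the sample names in the labels fall in 4 runs with gaps between them, here called sheet runs and treated as possible batches. Run 1 held 4 middle and 4 old animals, run 2 held 7 young, 5 middle and 5 old animals, run 3 held 4 old animals only, and run 4 held 4 young animals, 1 middle animal and 1 old animal. The extraction text of the labels speaks of liver. The libraries held 143010 to 230578 CPM of 14 cardiomyocyte markers, against 15 to 35.2 CPM of 7 hepatocyte markers, so the tissue label of left ventricle was used. CPM here is the count scaled to library size, after TMM scaling, which corrects that size for composition.

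FAM198B was well expressed in every ventricle. Its 75492 counts in all gave 1167 to 3883 counts per library, and per kilobase of transcript its mean level of 24.6 ± 5.82 CPM (SD, n = 35) lay above 89.9% of the 16202 genes tested. Young animals had a lowest level of 87.4, a median of 125 and a highest level of 156 CPM. Middle animals had a lowest level of 123, a median of 157 and a highest level of 199 CPM. Old animals had a lowest level of 83.5, a median of 101 and a highest level of 144 CPM. The 6 libraries with the most FAM198B were all from middle animals, and 7 of the 10 middle libraries stood above every old one. The bands still overlapped, since the 3 lowest middle values fell within the ranges of both other bands. The next middle value, 150 CPM, fell within the young range only.

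**Figure D1:**
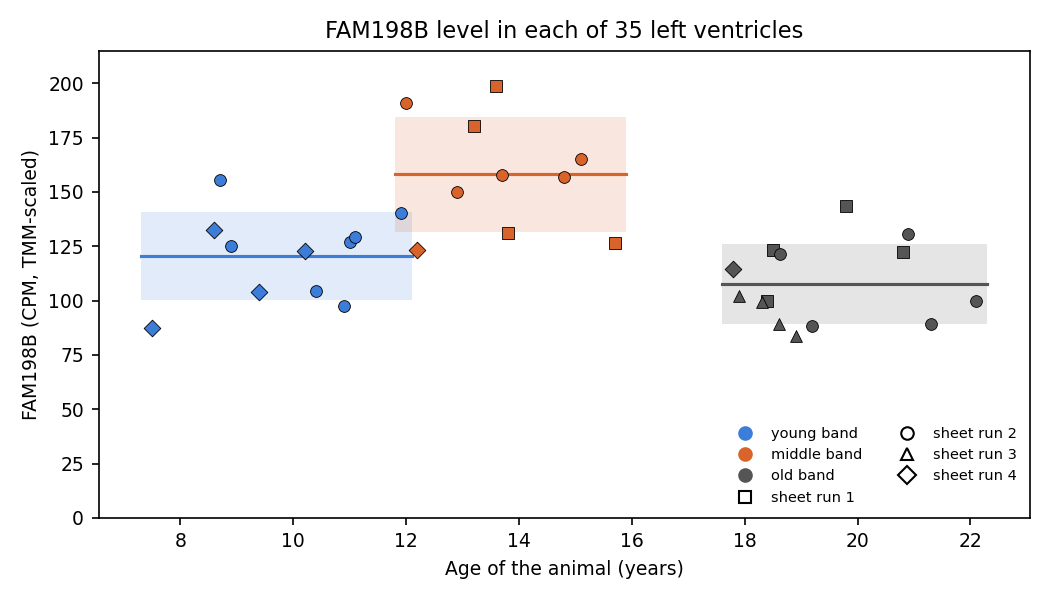
FAM198B level (CPM, TMM-scaled, vertical axis) in each left ventricle against the age of the animal in years, with colours for the age bands and symbols for the sheet runs. Lines and shading give the mean and SD of each band. The middle band, mean 158 CPM, lies above the young band, mean 121 CPM, and the old band, mean 108 CPM, and 6 of its 10 libraries exceed every library of the other bands.

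The bands averaged 121 ± 20.2 CPM in young animals, 158 ± 26.5 CPM in middle animals and 108 ± 18.4 CPM in old animals (SD). The middle mean was 1.31 times the young mean and 1.47 times the old mean. On the log2 scale the fitted difference was 0.39 ± 0.10 for middle against young and -0.55 ± 0.10 for old against middle (SE). The fitted curvature, which is old minus 2 times middle plus young, was -0.94 ± 0.18 (SE). These are the values by which the gene was chosen, so they are printed without a test. In that curvature 3 of 16202 genes passed an adjusted p of 0.05 with edgeR (0.0185%), all with the middle band highest. DESeq2 called 2, limma-voom 0, and edgeR with the log2 total count as a term 1. FAM198B is among the 3 edgeR genes through the choice itself, so its place there is no test of it. In old against middle 2 genes passed (0.0123%), and in middle against young 0 passed with edgeR (0%, with 734 genes at an unadjusted p under 0.05), with DESeq2 and with limma-voom.

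At the edges of the middle band single animals can be set side by side. The animal of 11.9 years, just outside, had 140 CPM, and the animal of 12 years, just inside, had 191 CPM. The animal of 15.7 years, just inside, had 127 CPM, and the animal of 17.8 years, just outside, had 115 CPM. Within the middle band the low libraries were those of 12.2, 13.8 and 15.7 years, with 123, 131 and 127 CPM. They came from runs 4, 1 and 1. Drawing the bands by rank of age, with 12, 11 and 12 animals, gave a curvature of -0.65.

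The contrast that the choice did not use was old against young. FAM198B was 0.16 ± 0.10 log2 units lower in old than in young animals (SE), with an adjusted p of 0.641 by edgeR's quasi-likelihood test. Its age slope over all 35 libraries was -0.24 ± 0.13 log2 units per 10 years (SE, adjusted p = 0.433). Neither passed the threshold. Over all genes 0 passed in old against young with edgeR (0%, with 1439 at an unadjusted p under 0.05), against 11 higher and 5 lower with DESeq2 and 0 with limma-voom, and 7 passed on the age slope (0.0432%). The order of the band means was therefore middle, young, old. A difference between the young and old bands was not detected by edgeR's quasi-likelihood test (unadjusted p = 0.0981).

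Within sheet runs the middle animals also had the higher means. In run 2, the only run with several animals of each band, FAM198B averaged 126 ± 19.9 CPM in 7 young animals, 164 ± 16 CPM in 5 middle animals and 106 ± 19.3 CPM in 5 old animals (SD). All 5 middle libraries of run 2 stood above every old library of that run and 4 of them above every young one. In run 1 the 4 middle animals averaged 159 ± 36 CPM and the 4 old animals 122 ± 18 CPM (SD), and 2 of the 4 middle libraries stood above every old one. Run 4 had 1 middle library, at 123 CPM, and its 4 young libraries ran up to 132 CPM. Run 3, with old animals only, had the lowest mean, 93.5 ± 8.78 CPM (SD, n = 4). With sheet run as a term the curvature was -0.80, and within run 2 it was -1.02.

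Depth varied with FAM198B, short of the threshold. The log2 CPM of FAM198B had a Pearson r of 0.40 with the total count (permutation p = 0.0177, adjusted over 5 library measures 0.0887) and a Spearman rho of 0.40 (permutation p = 0.0183). Without the 2 libraries farthest from the median, r was 0.45 (adjusted permutation p = 0.0419). Centred on the age bands r was 0.24 (permutation p = 0.173). With the log2 total count as a term the curvature was -0.86. The shares of mitochondrially encoded genes (r = 0.03) and of the 10 most abundant genes (r = -0.03), the number of genes detected (r = 0.26) and the share of counts on lines without a gene name (r = 0.18) did not pass either, with adjusted permutation p of 0.332 to 0.884.

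Both transcripts of FAM198B carried the high middle level. X1, which held most of the counts, averaged 109 ± 20.5 CPM in young animals, 141 ± 26.2 CPM in middle animals and 97.7 ± 17.3 CPM in old animals (SD). X2 averaged 11.4 ± 2.50 CPM in young animals, 17.3 ± 2.86 CPM in middle animals and 9.96 ± 3.04 CPM in old animals (SD). Of the 10 middle libraries, 4 were above every young library in X1 and 6 in X2, while 7 were above every old library in X1 and 5 in X2. The fitted curvature was -0.90 ± 0.19 for X1 and -1.40 ± 0.25 for X2 (SE), again with no test, since they add up to the gene by which the choice was made. The age slope was -0.23 ± 0.13 log2 units per 10 years for X1 (SE, adjusted p = 0.757, edgeR) and -0.32 ± 0.20 for X2 (SE, adjusted p = 0.790, edgeR), in a fit where 1 of 39222 transcripts passed (0.00255%).

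The share of X2 among FAM198B counts is a measure that the choice did not use. It ran from 5.83% to 15.2% over the 35 libraries, with a mean of 9.78% ± 2.80 in young animals, 11.2% ± 2.28 in middle animals and 9.33% ± 2.49 in old animals (SD). The bands overlapped over most of their ranges, and the F ratio over the 3 bands was 1.65 (permutation p = 0.205). Against age, r was -0.12 (permutation p = 0.501) and rho was -0.11 (permutation p = 0.542). Leaving out the 2 most extreme ages gave an r of -0.04. Within run 2, where old animals had a mean share of 7.74% ± 2.31 (SD, n = 5), r was -0.39 (permutation p = 0.123, n = 17). The shares rest on the way in which the authors' software divided reads over transcripts that overlap almost fully, and the reads were not at hand to check it.

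**Figure D2:**
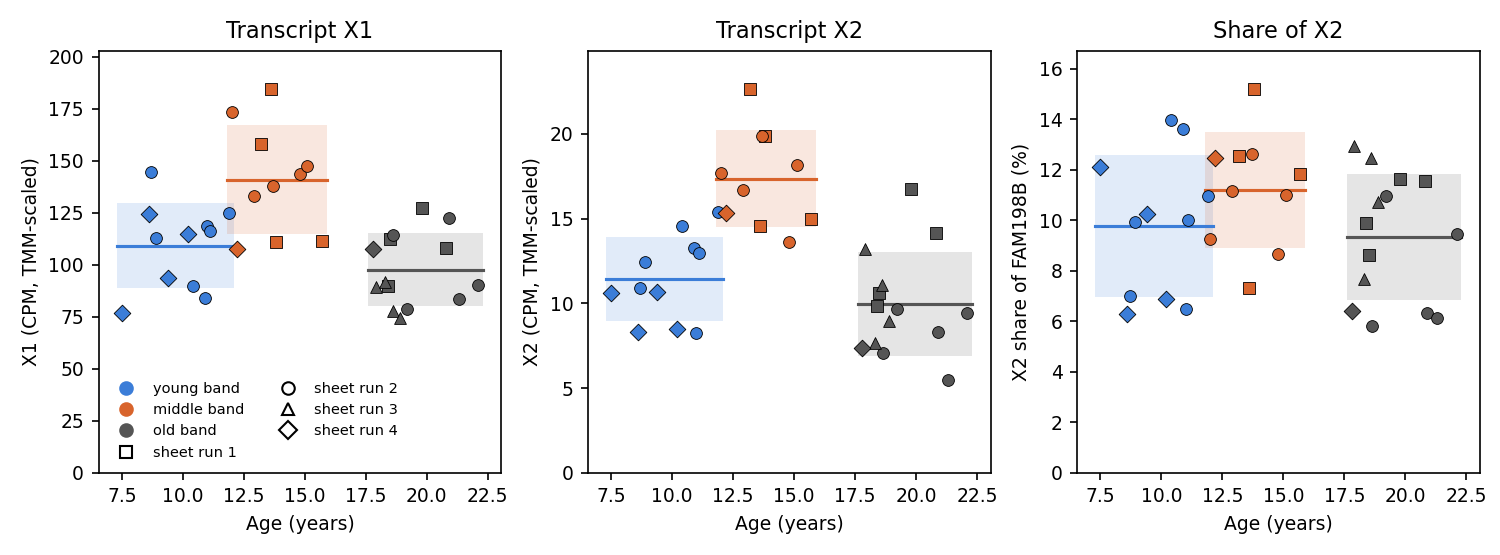
Levels of the FAM198B transcripts X1 and X2 (CPM, TMM-scaled) and the share of X2 in FAM198B (%), each against age in years, for 35 libraries. Lines and shading give the mean and SD of each age band. X1 and X2 both have their highest mean in the middle band, 141 and 17.3 CPM, while the share of X2 overlaps between bands, from 5.83% to 15.2%.

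FAM198A was close to the limit of detection. The whole series held 258 counts of it, with 1 to 21 counts and a median of 7 per library, and 23 of the 35 libraries had fewer than 10. A single count has an exact 95% Poisson interval of 0.0253 to 5.57 counts, and 21 counts one of 13 to 32.1, which cover counting error only. Young animals had a lowest level of 0.0707, a median of 0.375 and a highest level of 0.528 CPM. Middle animals had a lowest level of 0.142, a median of 0.492 and a highest level of 0.891 CPM. Old animals had a lowest level of 0.0525, a median of 0.405 and a highest level of 1.36 CPM. The bands overlapped broadly, with 5 middle and 5 old libraries above every young one. Per kilobase of transcript FAM198B stood 280 times as high as FAM198A.

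No age contrast of FAM198A passed. It did not pass the filter on low counts, so it was tested in a fit without a filter over 30039 genes. The age slope was 0.61 ± 0.35 log2 units per 10 years (SE, adjusted p = 0.523, edgeR), where 35 genes passed (0.117%). Old against young differed by 0.43 ± 0.37 (SE, adjusted p = 0.725, edgeR), where 0 genes passed (0%, with 2317 at an unadjusted p under 0.05). Middle against young differed by 0.47 ± 0.39 (SE, adjusted p = 0.794, edgeR), where 0 genes passed (0%, with 1805 at an unadjusted p under 0.05). Without the filter DESeq2 called 10 higher and 3 lower in old against young and 0 in middle against young, and limma-voom called 0 in both. Old against middle differed by -0.04 ± 0.36 (SE, adjusted p = 0.987, edgeR), where 2 genes passed (0.00666%), and its sign changed with other settings. The curvature was -0.52 ± 0.66 (SE, adjusted p = 0.921, edgeR), where 5 genes passed (0.0166%), and it was 0.06 within run 2. Without the old animal of 22.1 years, which had 21 counts, the age slope was 0.32. At counts this low the standard errors of the band contrasts were 0.36 to 0.39 log2 units, against 0.10 for FAM198B.

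**Figure D3:**
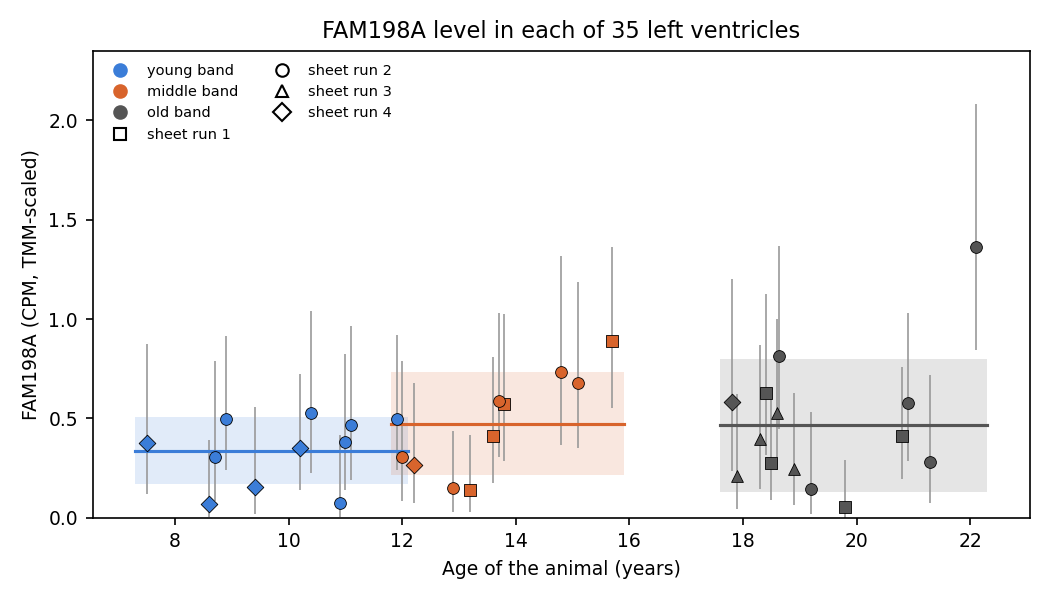
FAM198A level (CPM, TMM-scaled) in each left ventricle against age in years, with grey lines for the exact 95% Poisson interval of its count and with the mean and SD of each band as line and shading. The intervals of most libraries overlap, and band means of 0.337 CPM in young, 0.474 CPM in middle and 0.465 CPM in old animals lie within 1 SD of each other.

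No relation between the 2 relatives was detected over the libraries. Their log2 CPM values had an r of 0.02 (permutation p = 0.890) and a rho of 0.08 (permutation p = 0.668), and without the 2 libraries farthest from the median of FAM198B r was 0.03. With so few FAM198A counts this weak relation carries little information. FAM198A has 1 listed transcript, so a transcript share could not be tested.

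The secretory pathway kinase family supplied 11 further genes, and all were measured and tested. FAM20C, which phosphorylates most secreted phosphoproteins, had 5.60 ± 0.628 CPM per kilobase, and its partner FAM20A, which boosts FAM20C activity, had 0.790 ± 0.421 (SD, n = 35). FAM20B, which phosphorylates xylose in the linker of proteoglycans, had 13.8 ± 1.38 CPM per kilobase and ranked just after FAM198B. POMK, a kinase of the sugar chain on dystroglycan, had 3.31 ± 0.494, and PKDCC, which phosphorylates extracellular proteins on tyrosine, had 2.59 ± 0.588. FJX1, the relative of the fly kinase four-jointed, had 0.368 ± 0.218. The family members FAM69A, FAM69B and FAM69C had 0.760 ± 0.317, 5.51 ± 1.19 and 3.72 ± 2.60 CPM per kilobase. DIPK2A and DIPK2B, matched in the table by product name, had 2.30 ± 0.550 and 6.84 ± 1.27. FAM198A was the lowest of all at 0.0879 ± 0.0553 CPM per kilobase (SD, n = 35 for each).

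None of these 11 relatives changed with age past the threshold. On the age slope 7 of 11 were above 0 and 4 below, with a median of 0.07 against 0.00 for all genes, and 0 passed with edgeR, with DESeq2, with limma-voom or with sheet run as a term, while 3 had an unadjusted p under 0.05 with edgeR, as had 2093 of all 16202 genes. Those were FAM69B at -0.30 ± 0.12, FAM69C at -0.83 ± 0.38 and PKDCC at 0.28 ± 0.12 log2 units per 10 years (SE), with adjusted p of 0.267, 0.355 and 0.301 by edgeR. In the curvature 4 of 11 were above 0 and 7 below, and 0 passed with the same 4 fits. With edgeR 1 of the 11 had an unadjusted p under 0.05, as had 848 of all 16202 genes. That gene was FJX1, whose curvature of 1.06 ± 0.51 (SE, adjusted p = 0.938, edgeR) was opposite in sign to that of FAM198B. Its level averaged 0.974 ± 0.382 CPM in young animals, 0.697 ± 0.235 CPM in middle animals and 1.03 ± 0.754 CPM in old animals (SD).

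**Figure D4:**
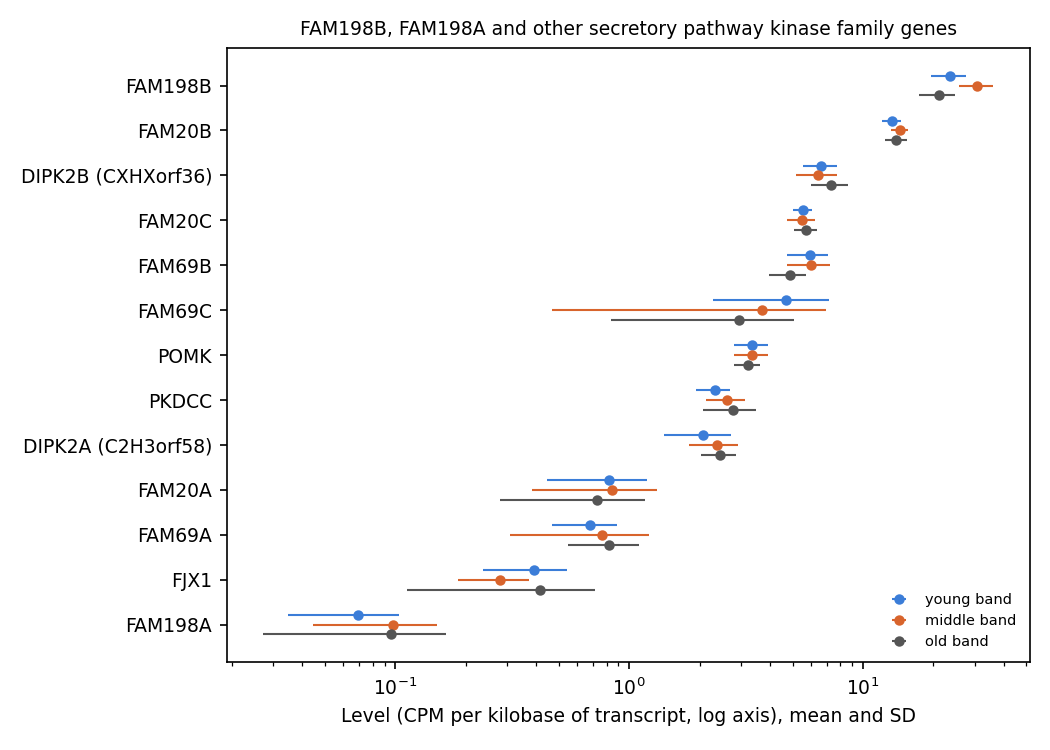
Mean level per kilobase of transcript (CPM per kilobase, log axis) of FAM198B, FAM198A and 11 other secretory pathway kinase family genes in young, middle and old animals, with bars for the SD. FAM198B is at the top with 24.6 and FAM198A at the bottom with 0.0879 CPM per kilobase over all animals, and bars of the 3 bands overlap for each of the other 11 genes.

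Lists around the ERK pathway and the matrix metalloproteinases were examined because of the lung cell work on FAM198B. Of 20 ERK targets and feedback inhibitors 16 were tested, and their r with FAM198B was above 0 for 12 and below 0 for 4, with a median of 0.07 against 0.00 for all genes. The highest were PHLDA1, an ERK-responsive gene, at 0.37 (adjusted permutation p = 0.601), and SPRED1, an inhibitor of the pathway, at 0.35 (adjusted permutation p = 0.647). ETV1, a transcription factor downstream of ERK, was at 0.20 and SPRY2, a feedback inhibitor, at 0.16. Of 9 metalloproteinases and their inhibitors 7 were tested, and r was above 0 for 2 and below 0 for 5, with a median of -0.07. The inhibitor TIMP1 was at 0.15, the membrane-bound protease MMP14 at 0.04, the inhibitor TIMP2 at -0.04 and the gelatinase MMP2 at -0.07. None of these genes passed on any age contrast with edgeR, while 5 of the 16 and 5 of the 7 had an unadjusted p under 0.05 on the age slope, as had 2093 of all 16202 genes.

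Genes with the pattern most like FAM198B were sought among the other 16201 tested genes, by Pearson's r of log2 CPM over the 35 libraries. With 100000 permutations, whose smallest p is 1e-05, 0 genes passed an adjusted p of 0.05 (0%), and 1203 genes, 633 positive and 570 negative, had an unadjusted p under 0.05. The 10 proper symbols with the highest r, at a mean of at least 1 CPM, were UBE2E1 (0.68), SEPT7 (0.64), SSR1 (0.57), DERL2 (0.57), PLEKHA3 (0.57), NCAPG2 (0.57), UBE2N (0.56), ATP13A3 (0.56), CTBS (0.56) and BZW1 (0.56). UBE2E1 and UBE2N are ubiquitin-conjugating enzymes, SEPT7 is a septin of the cytoskeleton, SSR1 is a subunit of the complex at the protein channel of the endoplasmic reticulum, and DERL2 takes part in the disposal of misfolded proteins there. PLEKHA3 is a lipid-binding protein of the Golgi, NCAPG2 a condensin subunit, ATP13A3 a polyamine transporter and CTBS a lysosomal enzyme of glycoprotein breakdown. The r of each of the 10 stayed above 0 when centred on age band or sheet run. The 10 were picked for their r in these same libraries, so this is a description and no separate check.

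UBE2E1 was the most like FAM198B. It averaged 31.6 CPM in young animals, with a range of 25.3 to 35.0, 33.8 CPM in middle animals, with a range of 30.6 to 38.4, and 30.0 CPM in old animals, with a range of 24.7 to 39.4. The bands of UBE2E1 overlapped, with every middle library within the old range, and its curvature of -0.27 log2 units was smaller in size than that of FAM198B. The permutation p of its r was 2.0e-05. Its rho was 0.70 (permutation p = 1e-05), r without the 2 libraries farthest from the median of FAM198B was 0.68, r centred on age band was 0.58 and r centred on sheet run was 0.65. The adjusted permutation p was 0.108, and 0.0632 with 5000000 permutations. SEPT7 had a rho of 0.64 (permutation p = 7e-05), an r without those 2 libraries of 0.63, an r centred on age band of 0.48 and an adjusted permutation p of 0.284. The middle animal of 13.2 years had 119 CPM of SEPT7, above the other 9 middle libraries, of which the next had 104 CPM.

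The lowest r belonged to ESPL1 (-0.72), MAP4K2 (-0.58), MYH6 (-0.57), EPB41L3 (-0.57) and TEPSIN (-0.56). ESPL1 encodes separase, the protease that parts sister chromatids, and averaged 2.94 CPM in young animals, 2.52 CPM in middle animals and 3.16 CPM in old animals. Its rho was -0.70 (permutation p = 1e-05), r without the 2 libraries farthest from the median was -0.68, and r centred on age band was -0.65. Its adjusted permutation p was 0.108 with 100000 permutations, where the smallest p limits the adjusted value, and 0.0292 with 5000000, a repeat added after the data were seen in which ESPL1 alone passed. MYH6, the fast alpha myosin heavy chain, averaged 759 CPM in young animals, 527 CPM in middle animals and 1066 CPM in old animals, and its curvature of 1.54 was opposite in sign to that of FAM198B. The MYH6 levels in old animals ran from 351 to 3722 CPM and overlapped those of both other bands. MYH6 had a rho of -0.54 (permutation p = 0.00103), an r without the 2 libraries of -0.54, an r centred on age band of -0.46 and an adjusted permutation p of 0.378. MAP4K2 is a kinase of stress signalling, EPB41L3 a membrane skeleton protein and TEPSIN an adaptor of vesicle traffic. Their r centred on age band was -0.43, -0.29 and -0.36.

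**Figure D5:**
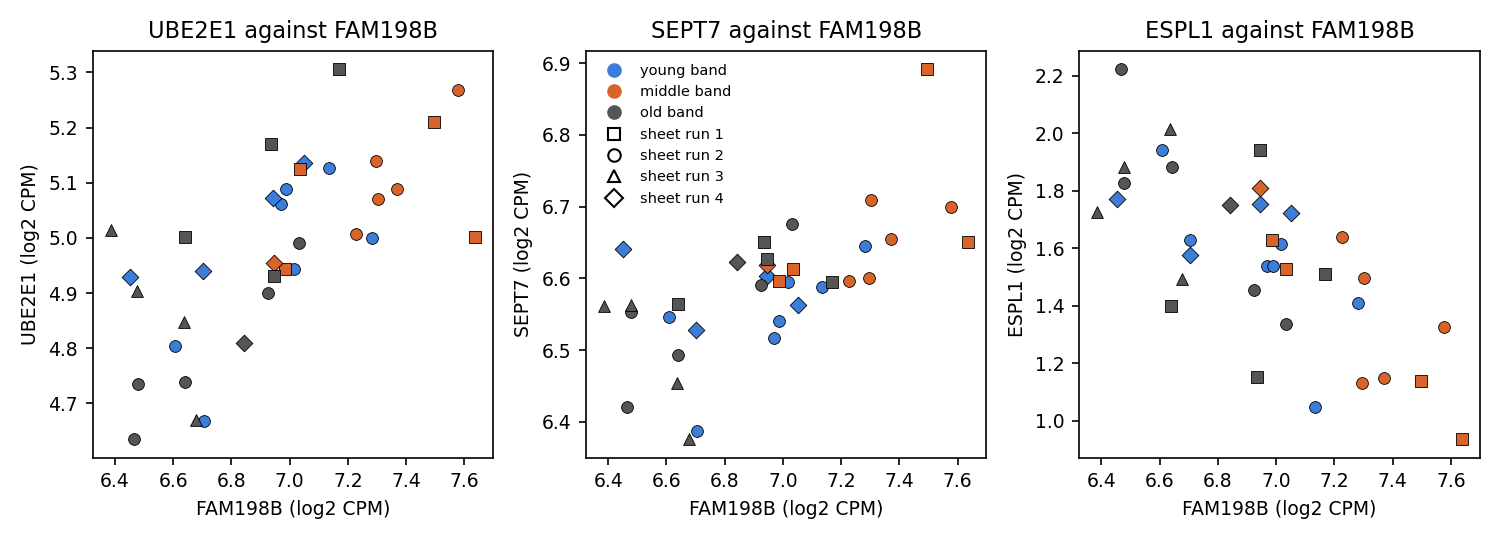
Level of UBE2E1, SEPT7 and ESPL1 (log2 CPM, vertical axes) against the level of FAM198B (log2 CPM, horizontal axes) in 35 libraries, with colours for age bands and symbols for sheet runs. UBE2E1 and SEPT7 go up with FAM198B, with r of 0.68 and 0.64, and ESPL1 goes down, with r of -0.72, and points of all 3 bands lie along each cloud.

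For FAM198A 0 of 16202 genes passed (0%) and 1869 had an unadjusted p under 0.05, while scaling by library totals instead of TMM gave 23 genes, all positive. The highest r were those of LOX (0.62), ALDH1L2 (0.62), SLC38A9 (0.60), BCL6 (0.60) and MEGF9 (0.59), and the lowest those of ZMAT2 (-0.63), ETFA (-0.63) and MYOZ2 (-0.61), each with an adjusted permutation p of 0.216. LOX crosslinks collagen and elastin, ALDH1L2 is a mitochondrial enzyme of folate metabolism, SLC38A9 is a lysosomal amino acid sensor, and BCL6 is a transcriptional repressor. ETFA carries electrons in fatty acid oxidation, and MYOZ2 is a sarcomere protein of the Z disc.

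In bulk tissue, fewer cells of a type and less RNA per cell cannot be told apart, so FAM198B was set beside the mean log2 CPM of marker lists for 17 cell types. None passed. The cardiomyocyte list had an r of 0.14 (adjusted permutation p = 0.870), and single markers had an r above 0 for 6 of 14 and below 0 for 8, with a median of -0.02. Its members of highest r were NPPA at 0.38, PLN at 0.32, ACTN2 at 0.22 and MYL2 at 0.18, while MYH6 was at -0.57. The fibroblast list had an r of 0.13 (adjusted permutation p = 0.870), with 11 of 18 markers above 0 and 7 below, led by MFAP5 at 0.30, LUM at 0.24, COL3A1 at 0.23 and PI16 at 0.23. The vascular endothelial list had an r of -0.20 (adjusted permutation p = 0.870), with 2 of 13 markers above 0 and 11 below. Its members of highest r were EMCN at 0.36, KDR at 0.04, EGFL7 at -0.03 and VWF at -0.13.

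In 4 lists nearly all markers had fitted band differences opposite in sign to those of FAM198B, none of them past the threshold. In the T and NK cell list all 13 tested markers had a lower fitted level in middle than in young animals, with a median of -1.14 log2 units, and a higher one in old than in middle animals, with a median of 1.04, against -0.01 and 0.01 for all genes. No marker passed with edgeR, while 6 and 4 had an unadjusted p under 0.05, as had 734 and 1211 of all 16202 genes. Summed levels of its 14 matched genes were 17.9 to 172 CPM in young animals, 18.4 to 64.7 CPM in middle animals and 20.2 to 120 CPM in old animals, so the bands overlapped, and no marker was at 0 in all libraries. The list's r with FAM198B was -0.28 (adjusted permutation p = 0.870), its rho was -0.44 (adjusted permutation p = 0.157), r without the 2 libraries farthest from the median was -0.32 and r centred on age band was -0.06. The members of highest r were CD4 at 0.07, CD8A at 0.03, CD3G at -0.09 and GZMB at -0.21. In the macrophage list 12 of 14 markers were lower in middle than in young animals (median -0.25) and 13 of 14 higher in old than in middle animals (median 0.20), and the list's r with FAM198B was 0.10 (adjusted permutation p = 0.949). In the adipocyte list these counts were 8 of 9 (median -0.21) and 9 of 9 (median 0.70), with an r of -0.14 (adjusted permutation p = 0.870). In the B and plasma cell list they were 3 of 3 both times (medians -0.82 and 0.40), with an r of -0.13 (adjusted permutation p = 0.870). Summed macrophage levels were 82.9 to 318 CPM in young animals, 107 to 239 CPM in middle animals and 100 to 371 CPM in old animals, and those of the B and plasma cell list 2.94 to 279, 3.65 to 33.1 and 4.99 to 168 CPM, with no marker of either at 0 in all libraries. The median summed B and plasma cell level was 5.84 CPM in young, 8.04 CPM in middle and 19.2 CPM in old animals. By the median the middle animals thus lay above the young ones, opposite to the fitted difference. In the erythroid list the signs of the fitted differences were those of FAM198B. Its 3 tested markers were higher in middle than in young animals (median 0.95). All 3 were lower in old than in middle animals (median -0.57). In the endocardial list 8 of 8 were higher in middle than in young animals (median 0.79). In old against middle animals 5 of 8 were lower (median -0.25). The median summed erythroid level was 80.8 CPM in young, 83.6 CPM in middle and 61.0 CPM in old animals. Its highest values were 230, 914 and 560 CPM, so single libraries weigh on the fitted differences. The median summed endocardial level was 59.9 CPM in young, 79.1 CPM in middle and 88.2 CPM in old animals. By that median the old animals lay above the middle ones, opposite to the fitted median. The erythroid r with FAM198B was 0.01 and the endocardial r 0.15 (adjusted permutation p = 0.952 and 0.870). The part of any of these cells in the FAM198B values was not tested.

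FAM198A was correlated with 2 of the 17 lists past the threshold. The lymphatic endothelial list had an r of 0.52 and the adipocyte list an r of 0.50 (adjusted permutation p = 0.0172 for each). Of the 7 tested lymphatic markers, MMRN1 at 0.58, CCL21 at 0.44, LYVE1 at 0.34 and RELN at 0.28 had the highest r, and the others lay lower. Of the 9 tested adipocyte markers, ADIPOQ at 0.55, CFD at 0.50, CIDEC at 0.46 and PLIN1 at 0.46, which mark mature fat cells, had the highest r. Centred on age band both still passed, with r of 0.50 for each (adjusted permutation p = 0.0309). Centred on sheet run they passed with r of 0.49 and 0.51 (adjusted permutation p = 0.0399), and the cardiomyocyte list passed too, with r of -0.48 (adjusted permutation p = 0.0447). By Spearman's rho 0 lists passed, with rho of 0.45 for the lymphatic and 0.41 for the adipocyte list (adjusted permutation p = 0.113). Without the 2 libraries farthest from the median 0 passed, with r of 0.45 and 0.39, and within run 2 (n = 17) 0 passed, with r of 0.42 and 0.48. Summed adipocyte levels were 940 to 1467 CPM in young animals, 817 to 1599 CPM in middle animals and 832 to 1764 CPM in old animals, and those of the lymphatic list 131 to 251, 154 to 247 and 105 to 251 CPM. LPL alone averaged 713 CPM over the 35 libraries, against 6.66 CPM for ADIPOQ, 19.1 for CFD, 2.30 for CIDEC and 10.5 for PLIN1. In the lymphatic list PROX1 alone averaged 128 CPM. These sums therefore mainly follow LPL and PROX1 and do not measure the number of fat or lymphatic cells. TFF3 was the one lymphatic marker at 0 in every library, and no adipocyte marker was. FAM198A also had an r of 0.38 with the number of genes detected in a library (permutation p adjusted over 5 library measures 0.126). Its rho with that number was 0.45 (adjusted permutation p = 0.0343). Without the 2 libraries farthest from the median r was 0.50 (adjusted permutation p = 0.0168). The part of these cells, or of that library measure, in the FAM198A counts was not tested.

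The named genes beside FAM198B had their own levels and a weaker relation to it than the genes above. TMEM144, a transmembrane protein gene that starts 27211 bases beyond FAM198B on the plus strand, had 9.58 ± 2.11 CPM in young animals, 9.30 ± 0.970 CPM in middle animals and 9.15 ± 2.06 CPM in old animals (SD), and its r with FAM198B was 0.26. RXFP1, the relaxin receptor 325954 bases away, and GRIA2, a glutamate receptor subunit 753895 bases away on the other side, did not pass the filter on low counts. GLRB, a glycine receptor subunit next to GRIA2, had 5.66 ± 2.84 CPM in young animals, 4.60 ± 2.13 CPM in middle animals and 6.81 ± 3.91 CPM in old animals (SD), with an r of -0.30. The transcribed pseudogene LOC103884733, 6860 bases away and named after its values were seen, had an r of -0.21. Each r is over 35 libraries and is a description with no test.

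The other genes called on the curvature, LOC101004388 and NPPA, had a different spread within the middle band. NPPA, the atrial natriuretic peptide, had medians of 0.250 CPM in young, 0.272 CPM in middle and 0.318 CPM in old animals, and a highest middle value of 101 CPM. The 2 highest middle libraries held 90.4% of the middle sum of NPPA and 91.8% of that of LOC101004388, against 24.7% for FAM198B. The coefficient of variation in the middle band was 231% for NPPA, 189% for LOC101004388 and 16.8% for FAM198B. The high middle mean of FAM198B was thus spread over the band, and those of the other pair came from few libraries. FAM198B was chosen by these same middle values. The comparison is therefore a description and lends no support to its high middle level. The r of FAM198B with NPPA was 0.38 and with LOC101004388 0.25.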

How the data were processed

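Libraries were strand-specific and depleted of ribosomal RNA, per the labels. Per the submitters' processing notes, bcl2fastq, HISAT2 and Partek were used, with no versions. The authors deposited expected counts per RefSeq transcript and a table of the same counts as a signal scaled by 1 TMM factor per library, which matched the counts within a relative spread of 8.5e-06. Counts were summed by gene name and rounded. The 24 lines without a name (0.364% to 2.93% of counts) were left out, and 27 names turned into dates were restored.

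edgeR 4.0.16 in R 4.3.3 fitted age per 10 years, and 3 bands split at 12 and 17 years, to all 35 libraries (TMM, filterByExpr, robust quasi-likelihood, Benjamini-Hochberg at 0.05). The design assumed that FAM198A would pass the filter. It did not, so it was tested without one. Correlations used log2 CPM (prior count 2) and 100000 two-sided permutations of the libraries. These ran in Python 3.11.15 (pandas 2.3.3, NumPy 2.4.6, matplotlib 3.10.9). Alternatives used DESeq2 1.42.0 and limma 3.58.1. The fits and correlations were tested on simulated data. The genes, lists and bands were chosen with earlier results of these data known. Of 238 list entries 230 matched, 10 by product name. Named genes were the family, the 10 highest and 5 lowest r with FAM198B (5 and 3 for FAM198A) among proper symbols of at least 1 CPM, up to 4 members of a list described, and the nearest named genes. Each library is a separate animal.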

Additional observations from a re-analysis of the deposited data

Results flagged for a closer look

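In the 10 middle libraries, 4 of 37 genes and shares examined had 1 library far from the rest, measured by its gap to the nearest library as a part of the whole range. Chance gives about 1 such group in 20. The middle animal of 15.7 years had 4.20 CPM of FAM20A, where the next had 2.14 CPM. The same animal had 5.30 CPM of FAM69A, where the next had 2.26 CPM. It also had 573 CPM of MYOZ2, the lowest, where the next had 706 CPM. This animal had 21 counts of FAM198A, the most in its band. MYOZ2 was named for its r of -0.61 with FAM198A over these same libraries, so those 2 values are not independent. The middle animal of 13.2 years had 119 CPM of SEPT7, where the next had 104 CPM. FAM198B, FAM198A and the share of X2 had no such library.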

How the results depend on the processing

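The FAM198B age slope and old against young kept their sign and did not pass in any alternative. The slope ran from -0.32 to -0.18 and old against young from -0.25 to -0.12 over other scalings, filters, tools, age scales (log2 of age per doubling and rank of age over its range), batch and depth terms. Leaving out 1 library gave -0.32 to -0.21 and -0.20 to -0.12. The untested FAM198B values ran from 0.21 to 0.40 (middle against young), -0.63 to -0.44 (old against middle) and -1.02 to -0.65 (curvature), and from 0.35 to 0.43, -0.59 to -0.51 and -1.02 to -0.86 without 1 library. The curvature moved by more than the spread within bands only with bands by rank of age, -0.65. FAM198A old against middle was 0.0066 with library totals, 0.36 within run 2 and 0.060 with a term for sheet run, and ran from -0.26 to 0.11 without 1 library. FAM198A curvature was 0.063 within run 2. The cause was not tested. Library totals gave 23 genes correlated with FAM198A, and 5000000 permutations gave 1 gene correlated with FAM198B. Cell lists correlated with FAM198A numbered 2 centred on age band, 3 centred on sheet run, 0 by Spearman's rho, 0 within run 2 and 0 without the 2 farthest libraries, and 1 library measure passed for FAM198B without its 2 farthest libraries. For FAM198A the number of genes detected passed by Spearman's rho and without its 2 farthest libraries, but not by r over all 35 libraries. Within bands the X2 share had an r of -0.48 with the FAM198B level (permutation p = 0.00476), against -0.12 pooled (permutation p = 0.504), a relation added after the data were seen. The FAM198B level is the denominator of that share, so a relation between them can arise from the division alone. The permutations take no account of this, and no conclusion is drawn from it. Over all genes the age slope called 51 higher and 19 lower with DESeq2 and 1 and 2 with limma-voom, against 5 and 2 with edgeR, and the curvature called 2 with DESeq2 and 0 with limma-voom, against 3. No paired analysis was possible because replicate numbers only follow the order of the samples. Depth limits FAM198A, whose 1 to 21 counts per library have wide counting intervals, and transcript shares rest on the authors' division of reads.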
